A study of Mus musculus with 8 samples.

Results

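Queuosine transfer RNAs are the isoacceptors for asparagine (AsnGTT), aspartate (AspGTC), histidine (HisGTG) and tyrosine (TyrGTA), named here by amino acid and by the anticodon of the gene. They were taken by name, as the genomic transfer RNA features of a mouse small RNA table whose names end in one of these 4 codes. This gave 50 of the 2403 features listed and of the 423 genomic transfer RNA features: 14 AsnGTT, 16 AspGTC, 10 HisGTG and 10 TyrGTA copies. The cells were immortalized fibroblasts from skin of C57BL/6 mice. Wild-type cells (WT) and cells titled KO, with the genotype mir210lox/lox, each spent 24 h at 21% O2 (normoxia) or at 1% O2 (hypoxia), and each of the 4 groups has 2 libraries, numbered 1 and 2. The labels name no separate cultures behind these libraries, and p-values therefore describe their spread alone, which may be technical. The labels do not state how the loci were recombined, how the cells were immortalized or how many clones or animals they came from.

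Queuosine is a hypermodified guanosine at the first, or wobble, base of the anticodon. Animal cells do not make its base, queuine, but take it up from food and gut bacteria, and the enzyme pair QTRT1 and QTRT2 swaps it for the guanine of these 4 isoacceptors. In aspartate and tyrosine transfer RNA a sugar is added on top, and the modification is known to affect decoding of codons that end in C or U and to protect the anticodon loop from ribonucleases. The values below count reads per gene copy. They do not measure the modification, and they cannot tell whole transfer RNAs from fragments, because the table gives no read positions or lengths. In bulk samples, fewer cells of a type and less RNA per cell cannot be told apart either.

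The 6 genes below are shown as the table lists them, 5′ to 3′, with the anticodon in capitals, because they carry the differences between and within the isoacceptors. They are the most abundant asparagine, aspartate and histidine copies, a divergent asparagine copy, the sequence shared by most aspartate copies, and a tyrosine copy described below.
chr2.tRNA1947-AsnGTT: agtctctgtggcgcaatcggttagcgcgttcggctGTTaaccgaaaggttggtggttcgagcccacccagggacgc
chr1.tRNA814-AsnGTT: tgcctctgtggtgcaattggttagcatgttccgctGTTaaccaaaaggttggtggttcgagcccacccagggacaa
chr10.tRNA856-AspGTC: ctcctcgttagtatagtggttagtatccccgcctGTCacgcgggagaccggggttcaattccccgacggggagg
chr11.tRNA397-AspGTC: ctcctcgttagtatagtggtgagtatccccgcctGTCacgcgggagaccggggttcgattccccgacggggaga
chr2.tRNA1431-HisGTG: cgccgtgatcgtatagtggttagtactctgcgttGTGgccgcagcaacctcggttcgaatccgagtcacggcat
chr13.tRNA958-TyrGTA: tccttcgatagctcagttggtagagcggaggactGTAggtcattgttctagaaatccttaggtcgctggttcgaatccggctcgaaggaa

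The table places them at chr2:18508670-18508744, chr1:190765284-190765358, chr10:90644841-90644913, chr11:68854485-68854557, chr2:122203098-122203170 and chr13:23524858-23524946, in that order. Overlap of these loci with other genes was not tested, and their build and strand were not given in the sources used here. The genes lay in clusters: 7 AsnGTT and 6 HisGTG copies stood within 178.4 kb on chromosome 3, 6 TyrGTA copies within 41.5 kb on chromosome 13, and 3 AspGTC copies within 29.1 kb on the same chromosome. On chromosome 1, 2 AspGTC copies and 1 AsnGTT copy stood within 31.5 kb, next to 3 more AspGTC copies within 29.5 kb.

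All 50 listed sequences have T just before the anticodon, which was part of the rule used to locate it. The base before that T is C in the AsnGTT, AspGTC and TyrGTA copies and T in the HisGTG copies, and the base after the anticodon is A in AsnGTT and AspGTC and G in HisGTG and TyrGTA. Listed lengths were 76 bases for AsnGTT, 74 for AspGTC and HisGTG, and 88 to 95 for TyrGTA. Tyrosine genes are known to carry an intron next to the anticodon, which is removed from the mature transfer RNA, and the 10 TyrGTA copies all differed from each other in their listed sequence. Outside that stretch they were close, with 3 different versions of the part from the second listed base through the anticodon and 4 of the 35 bases before the last listed base.

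Most copies of the other isoacceptors were identical except at their outermost bases. With the first and last listed base left off, 9 of 14 AsnGTT copies, 13 of 16 AspGTC copies and 8 of 10 HisGTG copies each shared one sequence. The divergent chr1.tRNA814-AsnGTT differed from the shared asparagine sequence at 8 of 74 bases, and chr10.tRNA856-AspGTC from the shared aspartate sequence at 2 of 72.

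Reads of such copies cannot be assigned to one gene from the listed sequence, yet the table gives many of them different values. Copies chr3.tRNA750, chr3.tRNA294, chr3.tRNA289 and chr10.tRNA381 of AsnGTT are listed with one identical sequence. The first and second held the same value to within 1 unit in every library. Their mean over the 8 libraries was 4.15 times that of chr10.tRNA381. For HisGTG the ratio of the highest to the lowest mean among 6 identically listed copies was 2.16, and for AspGTC it was 1.42 among 5. With the sharing of multiply matching reads not given in the sources used here, a copy's value cannot be taken as that of one gene.

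**Figure D1:**
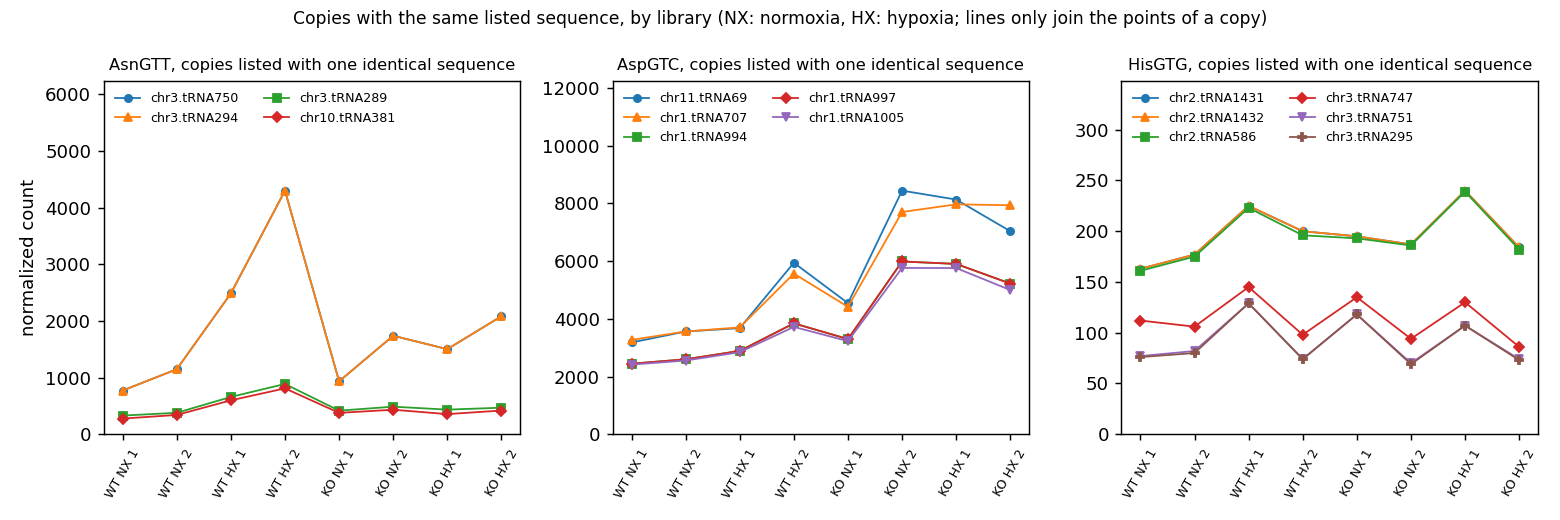
Normalized counts of gene copies listed with one identical sequence, for AsnGTT (4 copies), AspGTC (5 copies) and HisGTG (6 copies), in the 8 libraries along the x axis; points are single libraries and lines only join the points of a copy. Copies fall into separate levels, with chr3.tRNA750 and chr3.tRNA294 overlapping each other far above chr3.tRNA289 and chr10.tRNA381.

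Copies of one anticodon whose values were proportional across the 8 libraries (each value within 1 unit or 2% of the other copy times a fixed ratio) were therefore taken as 1 measurement, represented by the copy with the highest mean. Of the 50 copies 49 passed the filter on low values, at least 10 in at least 2 libraries, and formed 39 distinct measurements: 11 for AsnGTT, 11 for AspGTC, 7 for HisGTG and 10 for TyrGTA. The copy that failed was chr3.tRNA285-AsnGTT, with 1 to 4 per library. The largest set was that of chr13.tRNA84-AspGTC, which stood for 6 copies. Distinct measurements of one isoacceptor still shared most of their sequence. Across the 8 libraries their log2 values correlated with a median Pearson r of 0.97 for AsnGTT (55 pairs), 0.98 for AspGTC (55 pairs), 0.79 for HisGTG (21 pairs) and 0.74 for TyrGTA (45 pairs). They are not independent replicates.

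The library totals ran from 8618630 to 12167438 normalized counts, so a value of 0 allows a share of up to 2.47e-05% to 3.48e-05% (3 counts over the total). The lowest value of a member past the filter, 58 for chr13.tRNA959-TyrGTA in WT normoxia number 2, had a 95% exact Poisson interval of 44.0 to 75.0. These limits treat normalized counts as reads and cover counting error only. miR-210-3p held 4786 to 39011 in the 4 WT libraries and 10 to 32 in the 4 KO libraries, which goes with the titles. The 7 mesenchymal marker microRNAs summed to 3309890 to 5285450 per library, while the lists for haematopoietic (832 to 3044), epithelial (100 to 290.0), muscle (114 to 275), endothelial (102 to 191) and neural (595 to 954) cells stayed far lower. For the muscle and neural lists 2 of 3 members each were found by name. Genomic transfer RNA took 6.49% to 7.74% of the 4 WT libraries, 9.59% and 10.97% of KO normoxia, and 10.01% and 7.60% of KO hypoxia. Ribosomal RNA took 5.76% of KO hypoxia number 1 and 1.69% to 2.88% of the others. Differences below are on the scale of log2(normalized count + 1), with standard errors (SE) and p-values from limma, adjusted by Benjamini-Hochberg over all 1540 features tested or, for isoacceptor values, over all 1178 entries of a table with 1 value per anticodon. The threshold was an adjusted p of 0.05.

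By their most abundant copies the isoacceptors ranked from AspGTC down to HisGTG. Their ranges of copies overlapped, except that HisGTG lay below the ranges of AsnGTT and AspGTC. Per listed base, the most abundant copy held a mean normalized count of 141.04 for AspGTC, 88.0 for TyrGTA, 47.6 for AsnGTT and 2.65 for HisGTG. The means of the single copies past the filter ran from 1458 to 10437 for AspGTC, from 201 to 3614 for AsnGTT and from 90.8 to 196 for HisGTG. TyrGTA copies reached a mean of 8011, and the lowest, chr13.tRNA959-TyrGTA, with 58 to 232 per library, lay in the HisGTG range. The isoacceptor value of AspGTC was 1.08 to 2.18 times that of TyrGTA in the same library. All listed copies together made up 10.7% to 18.6% of the genomic transfer RNA counts of a library. It is not known whether a read matching several copies was counted at each of them. The levels of these sums and shares may therefore depend on the number of copies listed, which was not tested.

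AsnGTT, the carrier of asparagine, held its highest values in hypoxic WT cells. Its value, the sum over its distinct measurements, was 5749 and 7826 in WT normoxia against 13942 and 24440 under WT hypoxia, and 6691 and 10857 in KO normoxia against 9041 and 11365 under KO hypoxia (numbers 1 and 2). Both WT hypoxia libraries lay above the other 6, and the share of all entries that did so was not computed. Against WT normoxia alone, 10.2% of all entries were higher in WT hypoxia without overlap. KO normoxia overlapped both WT normoxia and KO hypoxia, while both KO hypoxia libraries lay above both WT normoxia libraries. WT cells went from 6788 ± 1469 in normoxia to 19191 ± 7423 in hypoxia (mean ± SD, n = 2), or 1.46 on the log2 scale (SE 0.36). This did not reach the threshold (limma adjusted p = 1.00, and 0.00% of all entries passed). It did so only in the alternative fit with the library number as a block (limma adjusted p = 0.0255), and the labels do not say what a shared number means. Among the 51 anticodons the 1.46 of AsnGTT was the highest of the hypoxia differences in WT, and the next, IleGAT, stood at 0.48.

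All 11 distinct AsnGTT measurements shared this pattern. In each of them both WT hypoxia libraries lay above the other 6, which held for 3.51% of all features tested. Their log2 differences between WT hypoxia and normoxia ran from 1.11 to 1.80 with a median of 1.22, against a median of 0.016 over all features, of which 52.1% were above 0. None passed the test (0 of 13 copies, limma, smallest adjusted p = 0.332, and 0.00% of all features). With the library number as a block 6 of the 13 copies passed, among 8 of all 1540 features. Without the block all 13 copies had an unadjusted p under 0.05, and they were 13 of the 17 features that did so with a higher value in WT hypoxia (1.10% of all features). Since copies share reads, this is not a count of 13 separate findings.

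The most abundant asparagine measurement, chr2.tRNA1947-AsnGTT, held 1882 and 2554 in WT normoxia against 4098 and 8269 under WT hypoxia, and 1872 and 3780 in KO normoxia against 2819 and 3641 under KO hypoxia. Its WT difference was 1.41 (SE 0.42, limma adjusted p = 0.968). chr5.tRNA1043-AsnGTT held 795 and 1221, 2511 and 4352, 984 and 1778, and 1539 and 2117 in the same order of groups, with a WT difference of 1.75 (SE 0.40). The pair chr3.tRNA750-AsnGTT and chr3.tRNA294-AsnGTT gave 1.80 (SE 0.40) from 771 and 1147 in normoxia to 2485 and 4299 in hypoxia. These 3 measurements have the same inner sequence as each other, and their differences lie within 1 SE of each other.

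Lower-valued asparagine copies went the same way. chr3.tRNA298-AsnGTT, which also stands for chr1.tRNA1006-AsnGTT, held 422 and 523 in WT normoxia and 738 and 1621 in WT hypoxia (1.22, SE 0.38), and 452 to 614 in the KO libraries. The divergent chr1.tRNA814-AsnGTT, shown above, held 99 and 139 in WT normoxia and 274 and 456 in WT hypoxia (1.58, SE 0.35, limma adjusted p = 0.332), and 127 to 189 in the KO libraries. The WT difference was thus also seen in the value of a copy that differs from the shared sequence. Most bases after the anticodon are the same in both, so this value need not come from reads of that copy alone. Whether its reads also matched other copies was not tested.

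**Figure D2:**
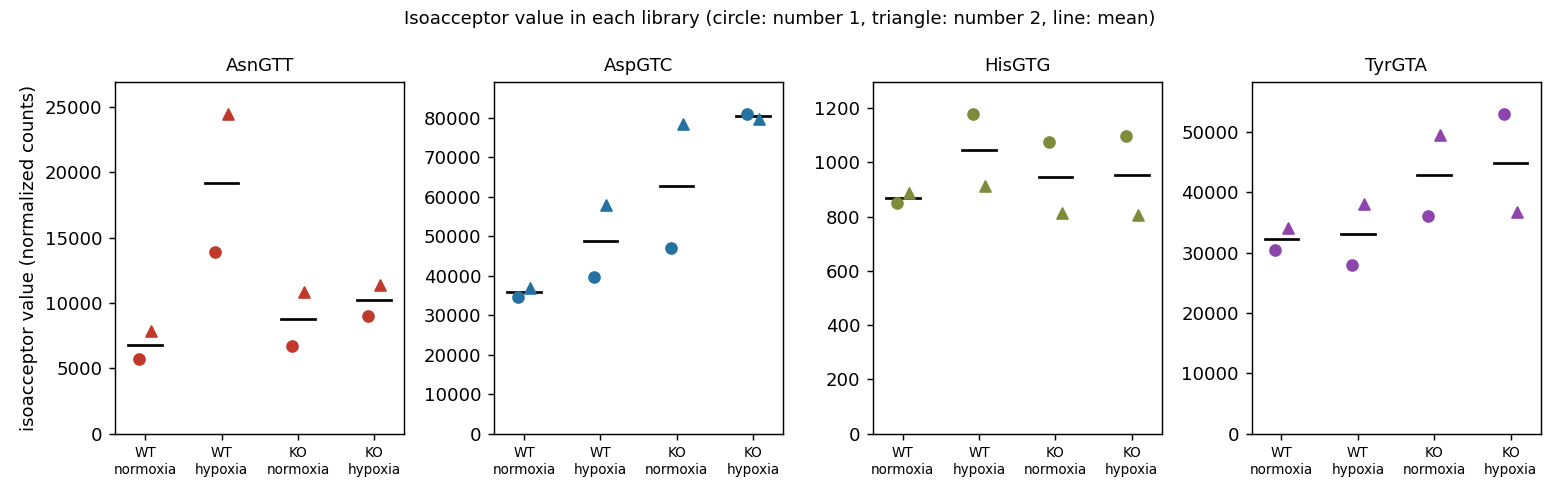
Isoacceptor values (normalized counts, y axis from 0) in the 4 groups; circles are number 1, triangles number 2, and lines the mean of the 2 libraries. AsnGTT stands at 13942 and 24440 in WT hypoxia and at 11365 or less in the other libraries, and AspGTC is higher in KO than in WT under both oxygen levels.

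In KO cells AsnGTT was 8774 ± 2946 in normoxia and 10203 ± 1643 in hypoxia (SD, n = 2), and the libraries overlapped. The log2 difference was 0.25 (SE 0.36, limma adjusted p = 1.00), and it was −0.099 without KO normoxia number 1. Of the 11 measurements 8 were higher and 3 lower in KO hypoxia, from −0.067 to 0.47 (52.3% of all features were above 0), and 0 had groups that did not overlap, where 15.8% of all features did so with higher values. The difference between genotypes in the hypoxia response, KO minus WT, was −1.21 (SE 0.52) for the isoacceptor value (limma adjusted p = 1.00). For this difference AsnGTT ranked 50 of 51 anticodons from the top, with TrpCCA lower at −1.28. Of the 47 other anticodons 31 were negative and 16 positive. By measurement the AsnGTT difference was negative in 11 of 11, from −1.34 to −0.99 (52.2% of all features were above 0). In 10 of 13 copies the unadjusted limma p was under 0.05 (1.49% of all features on the negative side), and 0 passed the threshold (0.00% of all features).

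Between genotypes in hypoxia, AsnGTT was lower in KO, by −0.86 (SE 0.36, limma adjusted p = 0.550; 0.170% of all entries passed), the lowest of 51 anticodons, and its groups did not overlap (17.1% of all entries on the lower side). All 11 measurements were lower with no overlap between groups (16.6% of all features), from −1.03 to −0.76. Of the 13 copies 9 had an unadjusted p under 0.05 (1.88% of all features on the lower side) and 0 passed the threshold (0.130% of all features). This comparison shares its WT hypoxia libraries with the WT hypoxia response, so the high values of those libraries enter both. Without WT hypoxia number 2 the difference was −0.46. In normoxia the KO libraries overlapped those of WT (0.35, SE 0.36, limma adjusted p = 0.784), and the value was −0.0036 without KO normoxia number 2.

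AspGTC, the carrier of aspartate and one of the isoacceptors whose queuosine receives a sugar, was higher in KO than in WT cells at both oxygen levels. Its value was 34719 and 36893 in WT normoxia against 39783 and 57893 under WT hypoxia, and 46981 and 78515 in KO normoxia against 80944 and 79866 under KO hypoxia. The genotypes did not overlap within either oxygen level (13.6% of all entries were higher in KO without overlap in normoxia and 15.8% in hypoxia), while KO normoxia number 1 lay below WT hypoxia number 2. The means were 35806 ± 1537 in WT and 62748 ± 22298 in KO normoxia, and 48838 ± 12806 in WT and 80405 ± 762 in KO hypoxia (SD, n = 2). KO minus WT was 0.76 (SE 0.31) in normoxia (limma adjusted p = 0.406, and 0.0849% of all entries passed) and 0.74 (SE 0.31) in hypoxia (limma adjusted p = 0.550), neither past the threshold. Among the 51 anticodons AspGTC ranked 5 from the top in normoxia and 4 in hypoxia. GluTTC was higher in both, at 0.81 and 1.01, and CysGCA, which does not carry queuosine, stood at 0.75 and 0.18. Of the 47 other anticodons 32 were higher and 15 lower in KO in normoxia, and 27 were higher and 20 lower in hypoxia.

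By measurement, KO exceeded WT without overlap in 10 of 11 in normoxia (21.9% of all features) and in 11 of 11 in hypoxia (19.2%). Median log2 differences were 0.80 and 0.76, against −0.064 and −0.044 over all features, of which 45.6% and 45.5% were above 0. In normoxia 0 of 16 copies passed the threshold (limma, 0.0649% of all features) and 13 had an unadjusted p under 0.05 (8.64% of all features on the higher side). In hypoxia 0 of 16 passed and 12 had an unadjusted p under 0.05 (7.14%).

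The most abundant aspartate copy, chr10.tRNA856-AspGTC, held 6760 and 7104 in WT normoxia against 8024 and 11620 under WT hypoxia, and 10111 and 10890 in KO normoxia against 13987 and 14999 under KO hypoxia. Its differences were 0.60 (SE 0.27) in normoxia and 0.58 (SE 0.27) in hypoxia. chr11.tRNA397-AspGTC, which has the sequence most aspartate copies share, held 3515 and 3672, 4109 and 6007, 4681 and 8858, and 8347 and 10095 in the same order of groups. Its difference in hypoxia was 0.89 (SE 0.35). chr13.tRNA981-AspGTC gave 0.88 (SE 0.35) and chr11.tRNA69-AspGTC 0.69 (SE 0.36). The lowest-valued aspartate copy, chr2.tRNA510-AspGTC, which differs from the shared sequence at 6 of 72 bases, gave 0.16 (SE 0.27) in normoxia and 0.51 (SE 0.27) in hypoxia.

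The share of genomic transfer RNA was also higher in every KO normoxia library than in every WT library, as given above. Scaled to each library's genomic transfer RNA total, the AspGTC differences were 0.47 in normoxia and 0.51 in hypoxia, and scaled to the microRNA total they were 1.00 and 0.90. Without KO normoxia number 2 the normoxia difference was 0.39, and without WT hypoxia number 1 the hypoxia difference was 0.47.

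Between hypoxia and normoxia, AspGTC differed by 0.42 (SE 0.31) in WT and by 0.40 (SE 0.31) in KO cells, without overlap between the groups (19.6% of all entries for KO) and without passing the test (limma adjusted p = 1.00 for both). In WT, 11 of 11 measurements did not overlap and were higher in hypoxia (14.4% of all features), and in KO 3 of 11 did so (15.8%). Without WT hypoxia number 2 the WT difference was 0.15, and without KO normoxia number 1 the KO difference was 0.034. The difference between genotypes in this response was −0.019 (SE 0.44), whose sign turns to 0.0087 with quantile normalization and 0.040 on the transfer RNA total.

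**Figure D3:**
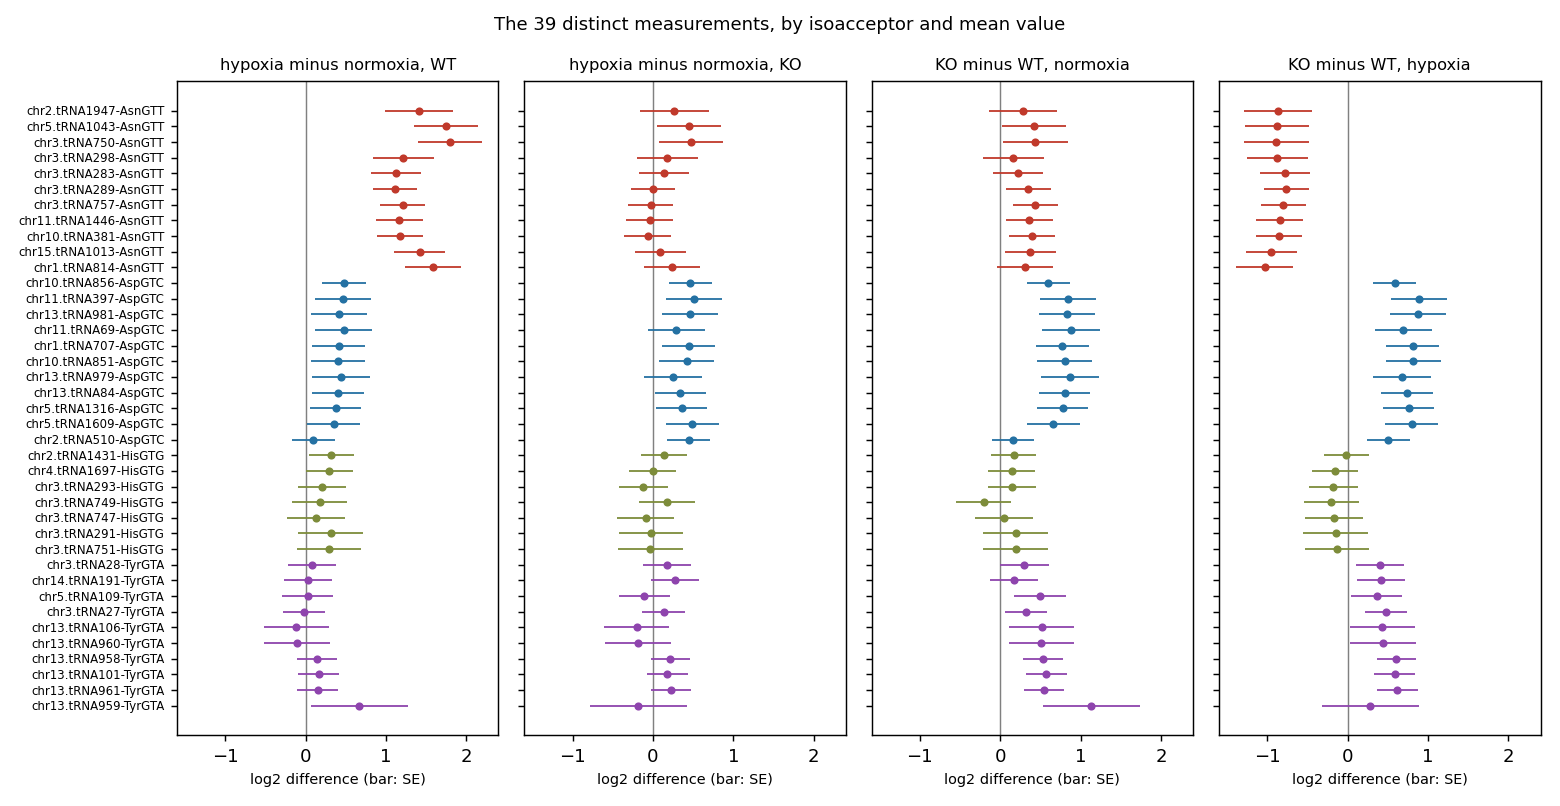
Log2 differences (x axis, bars are standard errors of the limma fit) of the 39 distinct measurements in the 4 pairwise comparisons, ordered by isoacceptor and by mean value. The 11 AsnGTT measurements (red) lie between 1.11 and 1.80 for hypoxia in WT and between −1.03 and −0.76 for KO minus WT in hypoxia, and the AspGTC ones (blue) lie above 0 in all 4 comparisons.

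TyrGTA, the carrier of tyrosine, had mean hypoxia differences close to 0. Its value was 30374 and 34154 in WT normoxia against 27999 and 38030 under WT hypoxia, and 36141 and 49517 in KO normoxia against 52917 and 36686 under KO hypoxia. The libraries of the oxygen levels overlapped in both genotypes, and the 2 KO hypoxia libraries were 1.44-fold apart. The hypoxia difference was 0.019 (SE 0.30) in WT and 0.059 (SE 0.30) in KO (limma adjusted p = 1.00 for both), and both turned negative on the microRNA total (−0.043 and −0.086). KO minus WT was 0.39 (SE 0.30, limma adjusted p = 0.700) in normoxia, where the groups did not overlap, and 0.43 (SE 0.30, adjusted p = 0.935) in hypoxia, where they did.

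Among the 10 TyrGTA measurements all were higher in KO in both conditions, where 45.6% (normoxia) and 45.5% (hypoxia) of all features were. Many other transfer RNAs went the same way, with 32 of 47 other anticodons higher in KO in normoxia and 27 of 47 in hypoxia. TyrGTA ranked 20 of 51 from the top in normoxia and 9 of 51 in hypoxia. Over the alternatives its difference ran from 0.097 to 0.63 in normoxia and from 0.17 to 0.70 in hypoxia. Groups did not overlap for 6 of the 10 TyrGTA measurements in normoxia (21.9% of all features) and for 4 in hypoxia (19.2%), and 0 passed the threshold. chr3.tRNA28-TyrGTA, the most abundant, held 6176 and 7411 in WT normoxia against 6308 and 8118 under WT hypoxia, and 7347 and 9464 in KO normoxia against 11523 and 7744 under KO hypoxia. chr13.tRNA958-TyrGTA was steadier, with 939 to 1064 in the 4 WT libraries and 1301 to 1653 in the 4 KO libraries, which did not overlap. The genotypes were also separate for chr13.tRNA101-TyrGTA (901 to 1099 and 1258 to 1656) and chr13.tRNA961-TyrGTA (879 to 1050 and 1227 to 1642). So were they for chr3.tRNA27-TyrGTA (3581 to 4506 and 4720 to 6092). The share of all features separated in this way was not computed. For chr13.tRNA958-TyrGTA the KO minus WT difference in hypoxia was 0.61 (SE 0.25, limma adjusted p = 0.545), the smallest p-value of a tyrosine copy. Of the other abundant copies in hypoxia, chr14.tRNA191-TyrGTA gave 0.41 (SE 0.30), chr5.tRNA109-TyrGTA 0.36 (SE 0.32) and chr3.tRNA27-TyrGTA 0.47 (SE 0.26).

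The tyrosine copies went together less closely than the asparagine ones. In the chromosome 13 cluster, chr13.tRNA106-TyrGTA and chr13.tRNA960-TyrGTA held 7743 and 7705 in KO normoxia number 2 and 3725 and 3667 in KO hypoxia number 2. These copies are not adjacent, as chr13.tRNA958-TyrGTA and chr13.tRNA959-TyrGTA lie between them. chr13.tRNA959-TyrGTA, with 58 to 232, was highest in the same KO normoxia library and in KO hypoxia number 1, at 232 and 229. Across pairs of tyrosine measurements r ran from 0.47 to 1.00.

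HisGTG, the carrier of histidine, was the lowest of the 4 and the one whose groups lay closest. Its value was 849 and 887 in WT normoxia against 1177 and 912 under WT hypoxia, and 1076 and 813 in KO normoxia against 1097 and 806 under KO hypoxia. Only the WT pair of groups did not overlap, and by a margin of 25 normalized counts between 887 and 912. Differences were 0.26 (SE 0.30) for hypoxia in WT, 0.0077 (SE 0.30) for hypoxia in KO, 0.11 (SE 0.30) for KO minus WT in normoxia and −0.14 (SE 0.30) in hypoxia, with limma adjusted p between 0.938 and 1.00. The last 3 changed sign under at least 1 other scaling. With these standard errors a difference of the size seen for AspGTC was not resolved.

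The most abundant histidine measurement, chr2.tRNA1431-HisGTG, which stands for 3 copies, held 163 and 177 in WT normoxia against 225 and 200 under WT hypoxia, and 195 and 187 in KO normoxia against 240 and 184 under KO hypoxia. Its hypoxia difference was 0.32 (SE 0.28) in WT, the highest among the 7 histidine measurements, of which the lowest was 0.13. Of the 7, 3 were higher in WT hypoxia without overlap (14.4% of all features) and 0 passed the threshold (0.00% of all features). chr4.tRNA1697-HisGTG (0.30, SE 0.29), chr3.tRNA293-HisGTG (0.21, SE 0.30) and chr3.tRNA749-HisGTG (0.17, SE 0.34) gave similar values.

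The 4 isoacceptors were compared with each other by the ratio of their values within a library. Multiplying a whole library by 1 factor cannot alter this ratio, while quantile normalization can. AsnGTT stood at 0.166 and 0.212 of AspGTC in WT normoxia, at 0.350 and 0.422 in WT hypoxia, at 0.142 and 0.138 in KO normoxia and at 0.112 and 0.142 in KO hypoxia. All 4 WT libraries lay above all 4 KO libraries. The mean log2 ratio was −1.90 ± 0.63 in WT and −2.91 ± 0.17 in KO (SD, n = 4 libraries each), a difference of −1.01 (exact two-sided permutation test, p = 0.0286, the smallest that 4 against 4 libraries allow; adjusted p = 0.286 over 12 tests of 6 pairs in 2 comparisons). The ratio of AspGTC to HisGTG was higher in KO by 0.77 (exact permutation test, p = 0.0571, adjusted p = 0.286). For hypoxia against normoxia the ratio of AsnGTT to TyrGTA differed by 0.82 (exact permutation test, p = 0.143, adjusted p = 0.286), with mean log2 ratios of −2.26 (normoxia) and −0.82 (hypoxia) for WT and of −2.31 and −2.12 for KO. None of the 12 tests passed after adjustment, and 2 libraries against 2 within a genotype cannot reach the threshold.

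**Figure D4:**
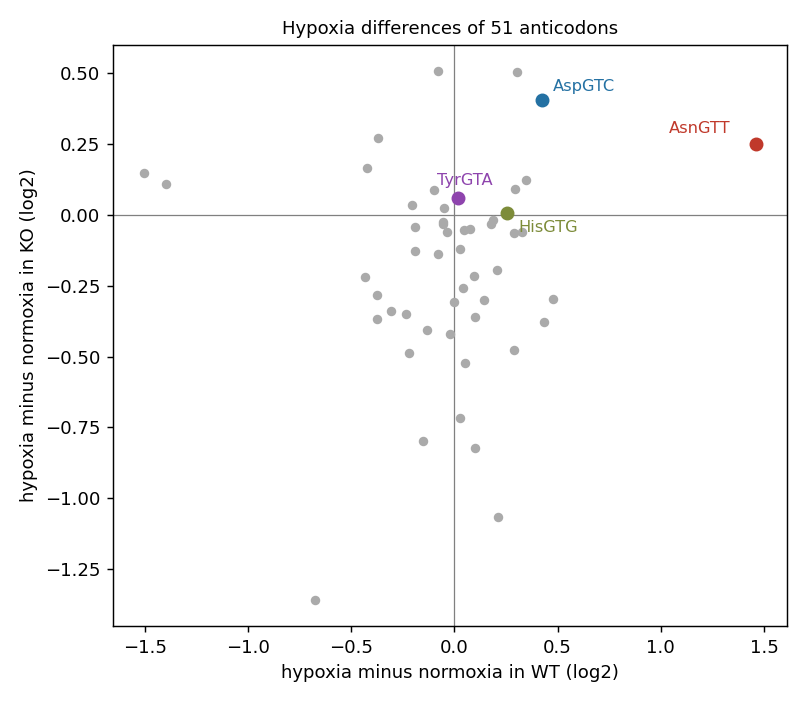
Log2 difference between hypoxia and normoxia in WT (x axis) and in KO cells (y axis) for 51 anticodons of genomic transfer RNA; each point is 1 anticodon, with the 4 queuosine isoacceptors coloured and named. AsnGTT lies at 1.46 and 0.25, apart from all others along the x axis.

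A list of 4 other isoacceptors with G at the first anticodon base, which do not carry queuosine, was set beside these 4. In WT the hypoxia differences were 0.049 for CysGCA, −0.22 for GlyGCC, −1.40 (SE 0.70) for PheGAA and −0.077 for SerGCT. PheGAA held 3337 and 3841 in WT normoxia and 1596 and 1157 in WT hypoxia, opposite in direction to AsnGTT. The median over the 4 queuosine isoacceptors was 0.34 (4 of 4 higher, against 50.1% of all entries), over these 4 others −0.15 (1 of 4 higher), and over all 47 other anticodons −0.021 (22 higher, 25 lower), with none past the threshold. The list left out 2 anticodons of this kind with 1 listed copy each, SerGGA, the lowest of 51 at −1.50 (SE 0.72), and IleGAT, at 0.48 (SE 0.33). With them 2 of 6 were higher in WT hypoxia, and the median was again −0.15. For the queuosine isoacceptors, the 4 others and all 47 others in turn, the hypoxia medians in KO were 0.15, −0.19 and −0.14. For KO minus WT, in the same order, the medians were 0.37, 0.047 and 0.21 in normoxia and 0.15, 0.21 and 0.041 in hypoxia.

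Mitochondria encode their own transfer RNAs for the same amino acids, which also carry queuosine. All 22 mitochondrial features were named through GENCODE M21. The asparagine one, mt-Tn, held 4143 and 5528 in WT normoxia and 3397 and 4966 in WT hypoxia, a difference of −0.22 (SE 0.31, limma adjusted p = 1.00), whereas genomic AsnGTT differed by 1.46. mt-Ty gave 0.24 (SE 0.45), mt-Th 0.060 (SE 0.32) and mt-Td, at 17 to 42 per library, −0.66 (SE 0.40). For KO minus WT in hypoxia mt-Td stood at −0.24 (SE 0.40), while genomic AspGTC stood at 0.74. None of the 4 passed in any comparison.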

How the data were processed

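Small RNA libraries (RNA by miRNeasy and libraries by a NEBNext kit for SOLiD sequencing, per the labels' protocols) were analysed from 1 table of deposited values in 8 libraries. The values are a score: normalized read counts in whole numbers, per the file headers and values. Not given in the sources used here are trimming, alignment, build, the treatment of multiply matching reads and how values were normalized. Sequences and coordinates are the table's own, and 1 sequence is not reported here.

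Features with at least 10 in at least 2 libraries (1540 of 2403) were fitted with limma 3.58.1 in R 4.3.3, with an intensity trend, on log2(value + 1), with 4 group means over 8 libraries (4 residual and 5.64 prior degrees of freedom). For isoacceptor values the genomic transfer RNA features were replaced by 1 value per anticodon (51 anticodons, 1178 entries), the sum over distinct measurements. The fit was tested on simulated data. Contrasts were hypoxia minus normoxia per genotype, KO minus WT per oxygen level, and their interaction. Named were the isoacceptors and, for each, the 4 measurements with the highest mean, the one with the smallest p, and any past the threshold. chr2.tRNA510-AspGTC, chr13.tRNA106-TyrGTA, chr13.tRNA960-TyrGTA, chr13.tRNA959-TyrGTA, chr13.tRNA101-TyrGTA, chr13.tRNA961-TyrGTA and the copies named for identical sequences were chosen after their values were seen. So was the count of measurements with both WT hypoxia libraries above the other 6. Members and lists were chosen with earlier results of these data known. Alternatives were other pseudocounts, filters, scalings (trimmed mean of M values, TMM, quantile, transfer RNA total, microRNA total), no trend, the replicate number as a block, the groups of a contrast alone, other ways to combine copies, and leaving out each library.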

Additional observations from a re-analysis of the deposited data

How the results depend on the processing

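The count of queuosine transfer RNA copies past the threshold was 0 in all 5 contrasts under every alternative tried except the replicate block. With the replicate number as a block 6 copies, all AsnGTT, passed for hypoxia in WT, and the AsnGTT isoacceptor value of 1.46 passed too (limma, adjusted p = 0.0255, range 0.0255 to 1.00 over its alternatives). Deviations by number correlated between all groups, with r from 0.15 to 0.55. The block is estimated from all 8 libraries, and AsnGTT was higher in number 2 than in number 1 in every group. The labels do not say what a shared number means, so the fit without the block was kept as the main one. AsnGTT kept its direction in WT (1.06 to 1.87 leaving out 1 library), in KO minus WT in hypoxia and in the interaction. AspGTC kept its direction in the 4 pairwise contrasts.

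Signs turned where differences were small, and the cause was not tested. On the microRNA total TyrGTA was −0.043 for hypoxia in WT, −0.086 for hypoxia in KO and −0.043 in the interaction, and HisGTG was −0.14 for hypoxia in KO and 0.015 for KO minus WT in hypoxia. With TMM factors HisGTG was −0.025 for hypoxia in KO. For KO minus WT in normoxia HisGTG was −0.0051 with quantile normalization and −0.19 on the transfer RNA total. The AspGTC interaction was 0.0087 with quantile normalization and 0.040 on the transfer RNA total. Leaving out 1 library gave −0.20 to 0.24 for TyrGTA with hypoxia in WT; in KO it gave −0.099 to 0.60 for AsnGTT, −0.21 to 0.23 for HisGTG and −0.21 to 0.32 for TyrGTA. For KO minus WT it gave −0.0036 to 0.69 for AsnGTT and −0.094 to 0.31 for HisGTG in normoxia, and −0.36 to 0.082 for HisGTG in hypoxia. In the interaction it gave −0.39 to 0.35 for AspGTC and −0.22 to 0.30 for TyrGTA.

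Scaling to the transfer RNA total moved the median of all features by −0.29 and −0.23 for KO minus WT in normoxia and hypoxia, and scaling to the microRNA total by 0.23 and 0.15, and by −0.14 for hypoxia in KO. The group-only fit does not exist for the interaction, which uses all groups. Leaving out 1 library left its group with 1, whose spread was taken from the other groups. The precision is limited by having 2 libraries a group.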
